A study of Mus musculus with 2 samples.

Results

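Ribosome biogenesis genes are examined here in single CD4 T cells from mouse spleen. The set holds 40 named genes of the 35976 gene rows, with 3 genes of RNA polymerase I, 8 of the small nucleolar ribonucleoproteins, 6 nucleolar scaffold and chaperone genes, 9 of small subunit assembly, 13 of large subunit assembly, and Myc. The genes were chosen by measured values as well as by function, that is, with the levels that these cells showed already known: their score was compared between the sample pools, between plates, and between cells that had Tnfrsf9 RNA and cells that did not. Those comparisons therefore describe the set, and no test is attached to them.

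The cells carried the transgenic OTII T cell receptor, which recognises an ovalbumin peptide, and had been transferred into host mice. They were sorted on day 7 after CAS, an abbreviation that the labels do not spell out, and a second priming, as cells that excluded propidium iodide and stained for CD4 and V beta 5.1/5.2. The control pool came from 2 C57BL/6 hosts. The deleted pool came from 3 hosts of genotype IL13Ra1f/f, CD11cCre/+, in which the CD11c promoter drives Cre, chiefly in dendritic cells. The genotype named is that of the hosts, so the transferred cells are taken to have kept the gene, which was not checked here. No congenic marker was named in the sort, so host CD4 T cells with the same V beta could also pass it. Each pool was 1 sample of 368 cells on 4 plates. Plates are splits of the same mice, so their spread is technical and does not stand for animals, and plate and pool cannot be told apart because no plate held both.

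Ribosomes are built in the nucleolus. RNA polymerase I copies the ribosomal RNA precursor, box C/D and box H/ACA particles guide its methylation and pseudouridylation, and a long series of assembly factors folds and cuts it into the small and large subunits. A T cell that leaves the resting state enlarges its nucleolus and raises its protein synthesis, and the transcription factor Myc is known to drive many genes of this pathway. Tnfrsf9 encodes 4-1BB (CD137), a costimulatory receptor that T cells display after their antigen receptor is engaged.

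RefSeq promoter windows (GRCm38.p6, the assembly also called mm10) were found for 33 of the 40 genes; Fbl, Npm1, Rrp12, Bop1, Rrs1, Gnl2 and Myc had no entry. A window ran from 250 bases before the annotated transcription start to 50 bases after it, and both strands were searched. The letters CACGTG, the E-box bound by Myc and related factors, were in windows of 7 of the 33 genes (21.2%), against 8.09% of all 27025 genes with a window and 12.4% of the genes measured here (at least 5 counts per 1000000 reads in genes, or CPM, in either pool). The letters CCGGAAG, a core bound by ETS factors, were in 12 of the 33 (36.4%), against 9.93% of all genes and 23.7% of the measured ones. In 103 ribosome biogenesis genes outside the 40 the shares were 18.4% for CACGTG and 43.7% for CCGGAAG. In 58 genes of ribosomal proteins they were 10.3% and 41.4%, so CCGGAAG was not particular to the 40. The longest runs of letters found in at least 3 of the 33 genes had 13 bases. One, ACTACATTTCCCA, was in 3 genes (Polr1b, Nop10 and Nop16), and in 0.511% of all genes and 1.21% of the measured ones. The other, CTACAACTCCCAG, was also in 3 genes, Nop14 and Nop16 among them, and in 0.292% and 0.757%. Both runs were picked from these same windows, so their larger share in the 33 genes was fixed by that choice. Of the 103 further ribosome biogenesis genes 0 had either run. Of the 58 ribosomal protein genes 1 had the first run and 0 had the second. In the window nearest each gene's start no match overlapped another. A match is a description of letters, not of a bound site.

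Stretches of 6 genes are shown as text, each the 100 bases just before the annotated start, 5′ to 3′ on the gene's strand. Nhp2 and Nolc1 carry CCGGAAG, and Nop2 carries both CACGTG and CCGGAAG. Polr1b and Nop16 carry the run ACTACATTTCCCA, Nop16 also the other run on the opposite strand, and Ncl, one of the most abundant members, has none of these letters in its window. Capitals mark the matches.
Nhp2, chr11:51619673-51619772, plus strand: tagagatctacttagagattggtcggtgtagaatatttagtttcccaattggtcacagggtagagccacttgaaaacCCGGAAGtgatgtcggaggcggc
Nolc1, chr19:46075747-46075846, plus strand: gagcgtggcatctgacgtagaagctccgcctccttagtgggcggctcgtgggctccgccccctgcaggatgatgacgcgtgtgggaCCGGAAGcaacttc
Nop2, chr6:125131783-125131882, plus strand: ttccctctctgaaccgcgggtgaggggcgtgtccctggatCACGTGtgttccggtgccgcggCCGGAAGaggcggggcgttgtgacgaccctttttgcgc
Polr1b, chr2:129100896-129100995, plus strand: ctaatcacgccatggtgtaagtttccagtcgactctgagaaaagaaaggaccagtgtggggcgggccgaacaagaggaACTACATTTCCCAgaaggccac
Nop16, chr13:54590075-54590174, minus strand: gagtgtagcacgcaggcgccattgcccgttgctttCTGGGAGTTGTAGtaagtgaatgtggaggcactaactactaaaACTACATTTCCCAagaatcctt
Ncl, chr1:86359456-86359555, minus strand: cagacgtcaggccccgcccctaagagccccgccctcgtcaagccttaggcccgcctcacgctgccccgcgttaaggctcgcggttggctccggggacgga
Among the 6 genes, the CCGGAAG match began 23 bases before the start in Nhp2, 14 in Nolc1 and 38 in Nop2. The CACGTG of Nop2 began 60 bases before the start. The run ACTACATTTCCCA began 22 bases before the start in both Polr1b and Nop16.

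The control pool held 573105030 reads in genes and the deleted pool 542650671, with a median of 1530282 reads per cell. A list of 8 CD4 T cell markers summed to 7611 to 8328 CPM on the control plates and 7647 to 9079 on the deleted plates. None of 7 B cell markers reached 5 CPM in either pool, and their sum was 0.434 to 18.0 CPM over the plates. Of 9 myeloid and dendritic cell markers 1 did, with sums of 17.7 to 32.1 CPM. The protocol used no molecular identifiers, so intervals cover counting error only.

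Levels of the genes spanned a wide range. Per kilobase of exon, Npm1 (nucleophosmin, a nucleolar chaperone) was highest at 158 CPM per kb in the control pool and 196 in the deleted pool. In the order of the control pool, Nop10 followed at 77.4 and 83.0, Nop56 at 53.4 and 65.9, Nhp2 at 49.8 and 46.4, and Ncl (nucleolin) at 42.5 and 45.6 CPM per kb, the second value of each pair being the deleted pool's. In the deleted pool Noc2l, at 49.96, lay between Nop56 and Nhp2. The lowest in the control pool was Utp20, a scaffold of the small subunit processome, at 1.52, and it stood at 2.47 in the deleted pool. Most genes were seen in few cells. With a cell counted as positive at 10 CPM or more, 35 of the 40 were seen in under 20% of the cells of both pools, from 2.99% for Noc3l upward. Npm1 was seen in 57.3% of control cells and 63.0% of deleted-pool cells, and Ncl in 57.1% and 59.8%. Reads of Npm1 are uncertain because it has processed pseudogenes, and 16 of the 40 share exon bases with a gene on the opposite strand, which counting without strand would not separate.

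A score was given to each cell, the mean over the 40 genes of ln(1 + counts per 10000 reads). It weighs the genes equally on a log scale, so reads spread over many of them score higher than the same reads in one. Cells ranged from 0.00328 to 1.26 with a median of 0.206. The 9 wells without a cell, at 6698 to 12348 reads, scored 0.327 to 0.545 and held 2407 to 4261 CPM of the 40 genes summed, against a median of 2824 CPM in cells. Wells without a cell held only 23 to 50 reads of these genes. Scores of these shallow wells thus lay above that of the median cell.

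Between the pools, the set stood at about the same level. Mean scores of the control plates were 0.214, 0.248, 0.227 and 0.243 (0.233 ± 0.016, SD over 4 plates), and of the deleted plates 0.237, 0.235, 0.274 and 0.204 (0.237 ± 0.029). The difference of 0.0044 was smaller than the spread between plates of either pool. Summed over the 40 genes, control plates held 3163, 3680, 3212 and 3460 CPM, and deleted plates 3683, 3577, 4296 and 3208 CPM. Deleted plate 3 was the highest of the 8, and the 2 ranges overlapped. The median log2 ratio, deleted over control with 1 CPM added to each, was 0.10 over the 40 genes and -0.04 over all 9764 genes measured; without deleted plate 3 the former was -0.02. None of the 40 was 2-fold higher or lower, where 5.98% and 6.71% of all genes were. With 1 pooled sample per group, no test between pools was possible.

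Nolc1, which encodes the nucleolar phosphoprotein Nopp140 that binds small nucleolar ribonucleoproteins, was the 1 gene whose plates separated. It stood at 86.0, 51.5, 81.9 and 58.5 CPM on the control plates and at 98.4, 105.6, 110.5 and 92.5 CPM on the deleted plates. Each deleted plate lay above each control plate, with pool levels of 69.6 CPM (95% Poisson interval 68.9 to 70.3) and 101.7 (100.9 to 102.6), a log2 ratio of 0.54. Plates separated upward for 1.81% of all measured genes and downward for 2.60%, and none of the 40 separated downward.

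The other 39 overlapped between pools. The widest ratios were 0.75 for Nop2, a methyltransferase of the large subunit, and -0.84 for Noc3l, a large subunit export factor. Nop2 stood at 56.0, 77.2, 49.2 and 42.8 CPM on the control plates and 98.8, 69.6, 168.3 and 45.7 on the deleted plates. Deleted plate 3 was the highest of the 8, deleted plate 4 lay among the control plates, and the groups overlapped. Noc3l stood at 8.1, 37.6, 0.063 and 13.2 CPM on the control plates and 6.2, 19.6, 2.1 and 3.0 on the deleted plates, and 59.9% of its reads in the deleted pool came from 1 cell.

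**Figure D1:**
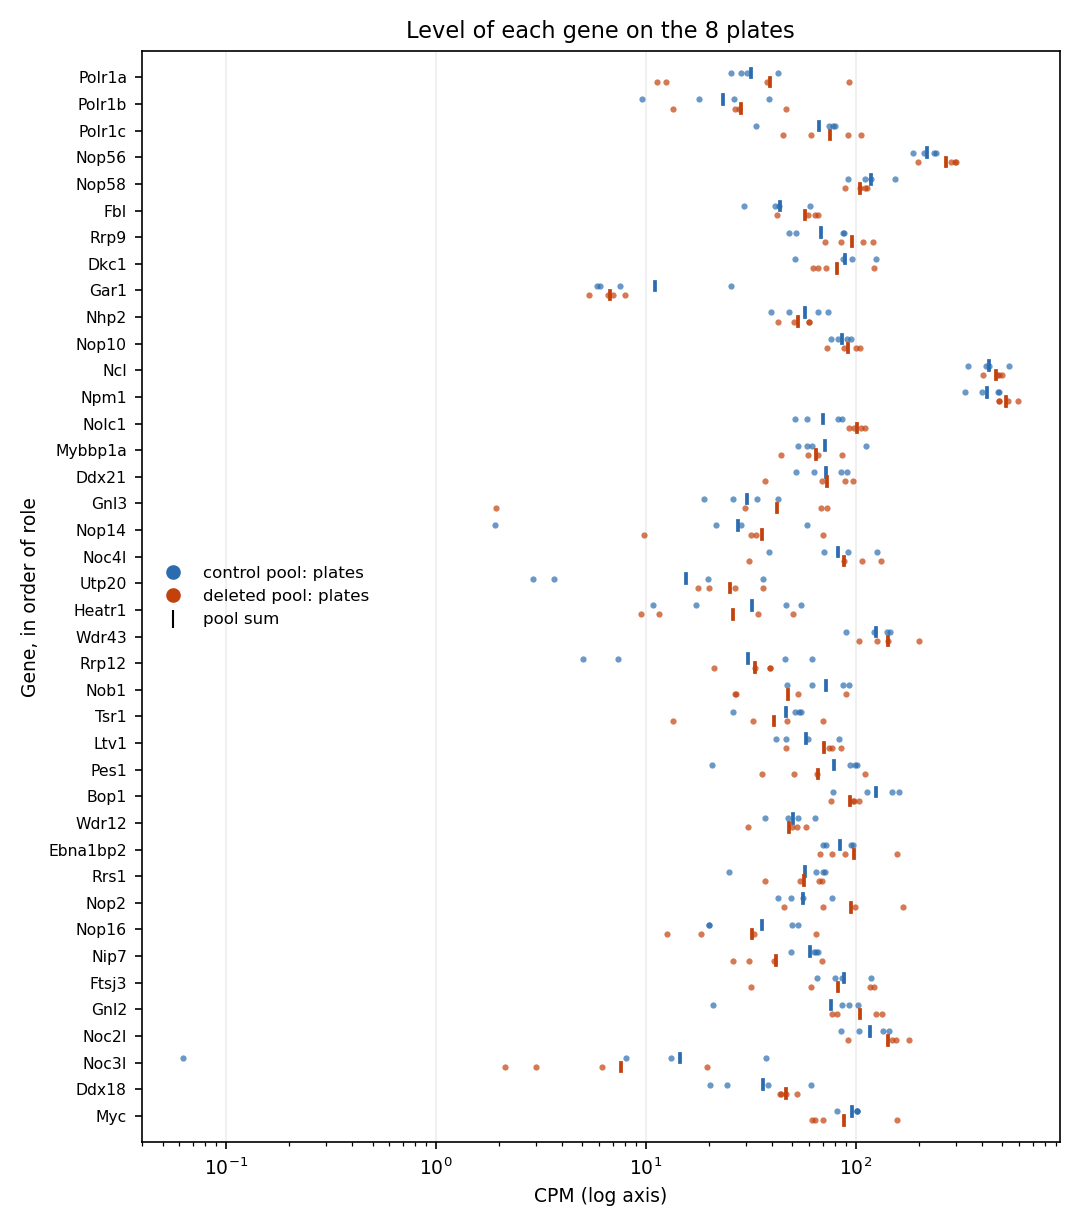
Level of each of the 40 genes in CPM (log axis). Points are the 4 plates of the control pool (blue) and of the deleted pool (orange), and short bars are the pool sums; points of the pools overlap for 39 of 40 genes, and Nolc1 is the exception.

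The cells were then divided by Tnfrsf9. At 10 CPM or more, 46 of 368 control cells were positive (12.5%, exact 95% interval 9.30 to 16.3) and 64 of 368 deleted-pool cells (17.4%, 13.7 to 21.7). Each control plate held 10 to 13 positive cells and each deleted plate 14 to 17. The median positive cell had 825 CPM of Tnfrsf9, so few cells lay near the threshold: 3 positive cells were under 20 CPM, with a mean score of 0.237, and 4 other cells were at 5 CPM or more, with a mean score of 0.128. Some Tnfrsf9 read was found in 510 of the 736 cells. Such reads were also found in 6 of the 9 wells without a cell, at up to 2 reads a well. Wells without a cell held 6698 to 12348 reads, and all 6 with a Tnfrsf9 read were at 10 CPM or more. The threshold thus did not set such shallow wells apart from positive cells. With cells under 200000 reads left out, 62 of the 64 positive and 303 of the 304 other deleted-pool cells remained.

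Tnfrsf9-positive cells had the higher score in both pools. In the control pool the means were 0.339 in positive and 0.218 in other cells, and in the deleted pool 0.424 and 0.198. By plate, the difference was 0.082, 0.236, -0.028 and 0.227 on control plates 1 to 4 and 0.204, 0.178, 0.294 and 0.218 on the deleted plates. Control plate 3 was the 1 plate of 8 where positive cells scored lower. Median depths were close, with 1563788 reads in positive and 1601742.5 in other cells of the control pool, and 1593043.5 and 1488143 in the deleted pool. The Treg marker list also summed higher in positive cells, at 824 against 429 CPM in the control pool (6 of 6 genes above 0 on the log2 scale) and 661 against 473 in the deleted pool (4 of 6). The part of that list in the score was not tested.

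In the control pool the lower quartile of scores was 0.156 in positive and 0.144 in other cells and the upper quartile 0.497 and 0.279. In the deleted pool the lower quartiles were 0.233 and 0.114 and the upper quartiles 0.577 and 0.265. A difference between the pools in these quartiles was not tested. A score above the 95th percentile of the other cells of the same pool was reached by 13 of 46 positive control cells (28.3%, 15.99 to 43.5) and by 27 of 64 positive deleted-pool cells (42.2%, 29.9 to 55.2). Medians were 0.253 against 0.204 in the control pool and 0.330 against 0.182 in the deleted pool. The 15 cells with the highest scores were all Tnfrsf9-positive, 5 from the control pool and 10 from the deleted pool, on 7 of the 8 plates. Of the 37 highest, 29 were positive (78.4%), and of the 74 highest 41 were (55.4%), where 14.9% of all cells were. None of the 12 positive cells of control plate 3 scored above 0.453.

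**Figure D2:**
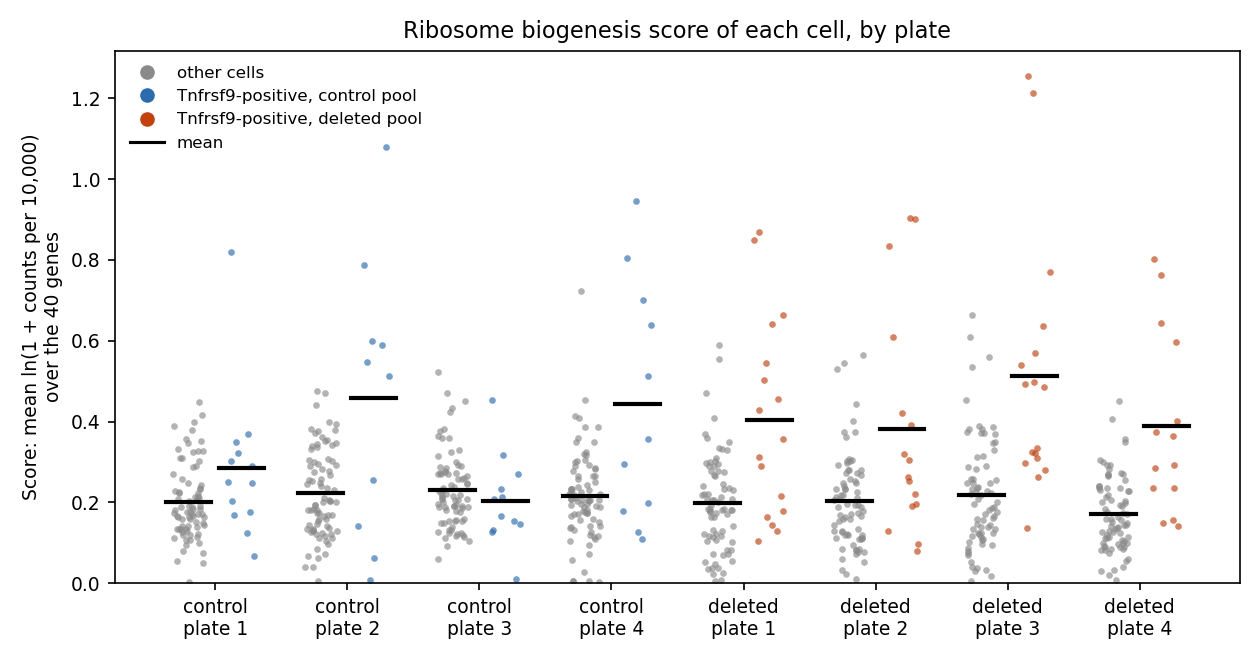
Score of each cell (mean ln(1 + counts per 10,000) over the 40 genes) on the 8 plates. Grey points are other cells, coloured points Tnfrsf9-positive cells and bars means; the positive cells reach 1.26, their mean lies above that of the other cells on 7 of 8 plates, and control plate 3 is the exception.

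Positive cells also held more of the genes at once. A positive control cell had 8.09 of the 40 genes at 10 CPM or more on average, and an other control cell 5.15. In the deleted pool the averages were 10.2 and 4.60. With every cell thinned to 200000 reads, which left out 3 deleted-pool cells and no control cell, they were 8.33 and 5.33 in the control pool and 10.3 and 4.87 in the deleted pool. The 15 highest cells had a median of 18 of the 40 genes. Cells with more genes of any kind had higher scores (Spearman's rho 0.271 over 736 cells, which share plates and depth), and positive cells had a median of 1488 genes at 10 CPM or more against 1367 in other cells of the control pool, and of 1550 against 1283 in the deleted pool. The part of the number of genes in the score was not tested.

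Gene by gene, the median log2 ratio of positive over other cells was 0.58 in the control pool and 1.18 in the deleted pool, where the medians of all measured genes were -0.06 and -0.05. In the control pool 11 of the 40 were at least 2-fold higher (14.2% of all genes were) and 3 at least 2-fold lower (23.5%). In the deleted pool 27 of the 40 were at least 2-fold higher (14% of all genes) and none was 2-fold lower (21%). In both pools 9 were at least 2-fold higher (3.22%) and none was lower (7.59%): Polr1b, Dkc1, Nhp2, Ncl, Nolc1, Ddx21, Utp20, Nop16 and Nip7. These counts come from the comparison by which the genes were picked, and nothing is read from them. Without the highest cell of each gene and class the counts were 6 in the control pool (5.09% of all genes), 22 in the deleted pool (7.41%) and 5 in both (1.11%). Without control plate 1 they were 17 in the control pool (15.7%) and 14 in both (3.35%). With any Tnfrsf9 read taken as positive they were 1 (12.2%), 8 (18.1%) and 0 (3.29%). Without the highest cells the median log2 ratio was 0.060 in the control pool and 1.04 in the deleted pool, where the medians of all genes were -0.64 and -0.41. With any read it was 0.072 and 0.30, where those of all genes were 0.0088 and 0.047.

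**Figure D3:**
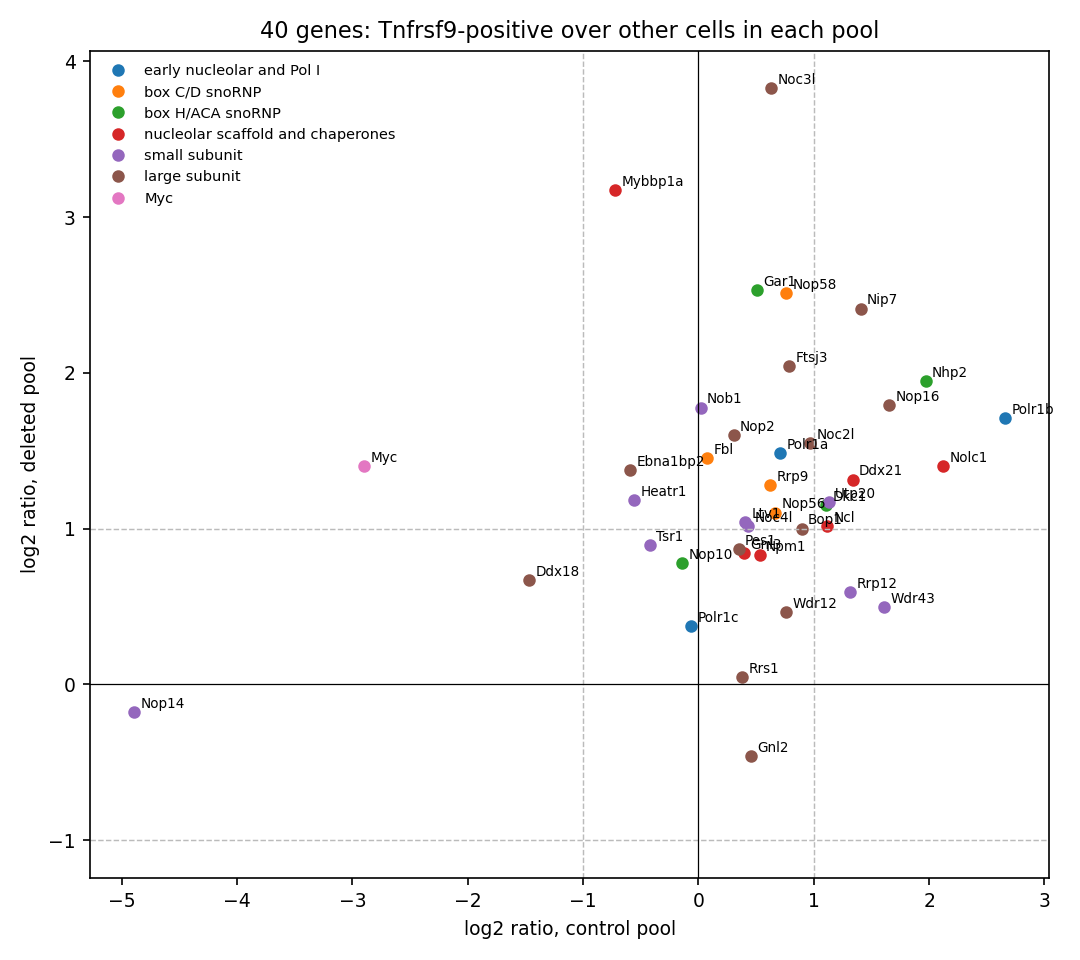
log2 ratio of Tnfrsf9-positive over other cells for each of the 40 genes, in the control pool (x axis) and the deleted pool (y axis), coloured by role. Dashed lines mark 2-fold; 9 genes lie beyond it in both pools, and Myc lies at -2.90 in the control pool and 1.40 in the deleted pool.

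Among the RNA polymerase I genes, Polr1b, the second largest subunit of the enzyme, stood at 91.0 CPM in positive and 13.5 in other control cells, and at 66.6 and 19.7 CPM in the deleted pool. Few cells carry that ratio: 4 of 46 positive and 10 of 322 other control cells had Polr1b, and 5 of 64 and 7 of 304 deleted-pool cells. Polr1a, the largest subunit, had log2 ratios of 0.71 and 1.49. Polr1c, a subunit shared with RNA polymerase III, had -0.06 and 0.37.

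Box C/D particles, which methylate ribosomal RNA, summed over 4 genes to 653 CPM in positive and 420 in other control cells, and to 1102 and 396 CPM in the deleted pool. Nop56, a core scaffold of the particle, was higher in positive cells on 7 of 8 plates, with 323 against 204 CPM in the control pool and 478 against 222 in the deleted pool. Its partner Nop58 had 185 against 109 CPM in the control pool and 319 against 55.0 in the deleted pool. The methyltransferase Fbl (fibrillarin) had 45.5 against 43.1 CPM and 120 against 43.2. The U3 protein Rrp9 had log2 ratios of 0.62 and 1.28. All 4 were thus at least 2-fold higher in the deleted pool and none in the control pool, a difference that was not tested. Nop56, Nop58, Ncl and Gnl3 host small nucleolar RNAs, and their rows share exon bases with those.

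Box H/ACA particles, which make pseudouridine, were led by Nhp2. It stood at 166 CPM in positive and 41.5 in other control cells and at 135 and 34.2 CPM in the deleted pool, and it was higher in positive cells on 8 of 8 plates, with log2 ratios from 1.07 to 2.83. It was seen in 17 of 46 positive control cells (36.96%) against 12.4% of the others, and in 24 of 64 (37.5%) against 10.9% in the deleted pool. The pseudouridine synthase Dkc1 (dyskerin) had log2 ratios of 1.11 and 1.15 but was higher on 4 of 8 plates only. Gar1 had 0.50 and 2.53, and Nop10 -0.14 and 0.78. Nhp2 and Dkc1 were thus at least 2-fold higher in both pools, Gar1 in the deleted pool and Nop10 in neither.

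Of the nucleolar scaffold and chaperone genes, Ncl and Ddx21 were higher in positive cells on 8 of 8 plates. Ncl had 818 CPM in positive and 378 in other control cells, and 789 and 389 in the deleted pool. Ddx21, an RNA helicase that acts in ribosomal RNA transcription and processing, had 155 and 60.7 CPM, and 143 and 56.8. Nolc1 was higher on 7 plates, with 215 against 48.7 CPM in the control pool and 206 against 77.4 in the deleted pool. The level of these 3 genes in positive cells was about the same in both pools. Mybbp1a, a nucleolar protein that binds Myb, had log2 ratios of -0.72 and 3.17, from 45.3 against 75.5 CPM and 235 against 25.2. Npm1 had 0.53 and 0.83, and the nucleolar GTPase Gnl3 (nucleostemin) had 0.40 and 0.85.

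For the small subunit, the 9 genes summed to 713 CPM in positive and 458 in other control cells and to 813 and 440 CPM in the deleted pool. Wdr43, a component of the processome that handles the 5′ end of the precursor, was higher on 8 of 8 plates, with 304 against 98.9 CPM in the control pool and 188 against 133 in the deleted pool. It was 1 of the 2 genes, with Rrp12, that were at least 2-fold higher in the control pool and not in the deleted pool. Utp20 had log2 ratios of 1.13 and 1.17 and was seen in 5 and 7 positive cells. Nop14 was seen in 0 of 46 positive control cells (3 cells, the limit for a count of 0, would be 6.52%) and in 5.59% of the others, with log2 ratios of -4.89 and -0.18. Rrp12, a late export factor, had 1.32 and 0.60, each from 5 positive cells. Nob1, the nuclease that makes the 3′ end of 18S ribosomal RNA, had 0.02 and 1.78. The ratios of the remaining 4, Noc4l, Heatr1, Tsr1 and Ltv1, ran from -0.56 to 0.43 in the control pool and from 0.90 to 1.18 in the deleted pool.

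For the large subunit, the 13 genes summed to 1287 CPM in positive and 820 in other control cells, and to 1697 and 734 CPM in the deleted pool. Noc2l, a partner in early large subunit assembly, was higher on 8 of 8 plates, with 205 against 104 CPM in the control pool and 309 against 105 in the deleted pool. Nip7 had 135 against 50.2 and 124 against 22.5 CPM, and was higher on 7 of 8 plates. Nop16 had log2 ratios of 1.66 and 1.79. Both Nip7 and Nop16 act in early large subunit particles. Of the 3 partners of the PeBoW complex, Pes1 had log2 ratios of 0.35 and 0.87 and Wdr12 0.76 and 0.46. Bop1 had 209 against 112 CPM in the control pool and 158 against 78.6 in the deleted pool, where it lay just past 2-fold. The methyltransferase Ftsj3 had log2 ratios of 0.79 and 2.04, Nop2 0.31 and 1.60, and Rrs1, which brings in the 5S particle, 0.38 and 0.05. Ebna1bp2 stood at 57.7 against 87.5 CPM in the control pool and at 197 against 75.4 in the deleted pool. Noc3l had 0.63 and 3.83, the second from 7 positive and 4 other cells. The helicase Ddx18 was lower in the control pool, at 13.7 against 39.5 CPM, and stood at 67.2 against 41.8 in the deleted pool. Gnl2, a GTPase of large subunit export, was the member besides Nop14 with a ratio below 0 in the deleted pool, at -0.46.

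Counted by cells instead of reads, 37 of the 40 were seen in a larger share of positive than other cells in both pools (43.6% of all genes were). Shares at least 2 times as large in both pools were found for 15 (5.14%). The median share over the 40 genes was 16.3% of positive and 9.78% of other control cells, and 21.9% and 8.22% in the deleted pool. Nop14, Heatr1 and Myc, in the control pool, were the 3 seen in a smaller share of positive cells. By plate, 8 of the 40 were higher in positive cells on 7 or 8 of the 8 plates (3.42%), and 11 on 4 or fewer.

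**Figure D4:**
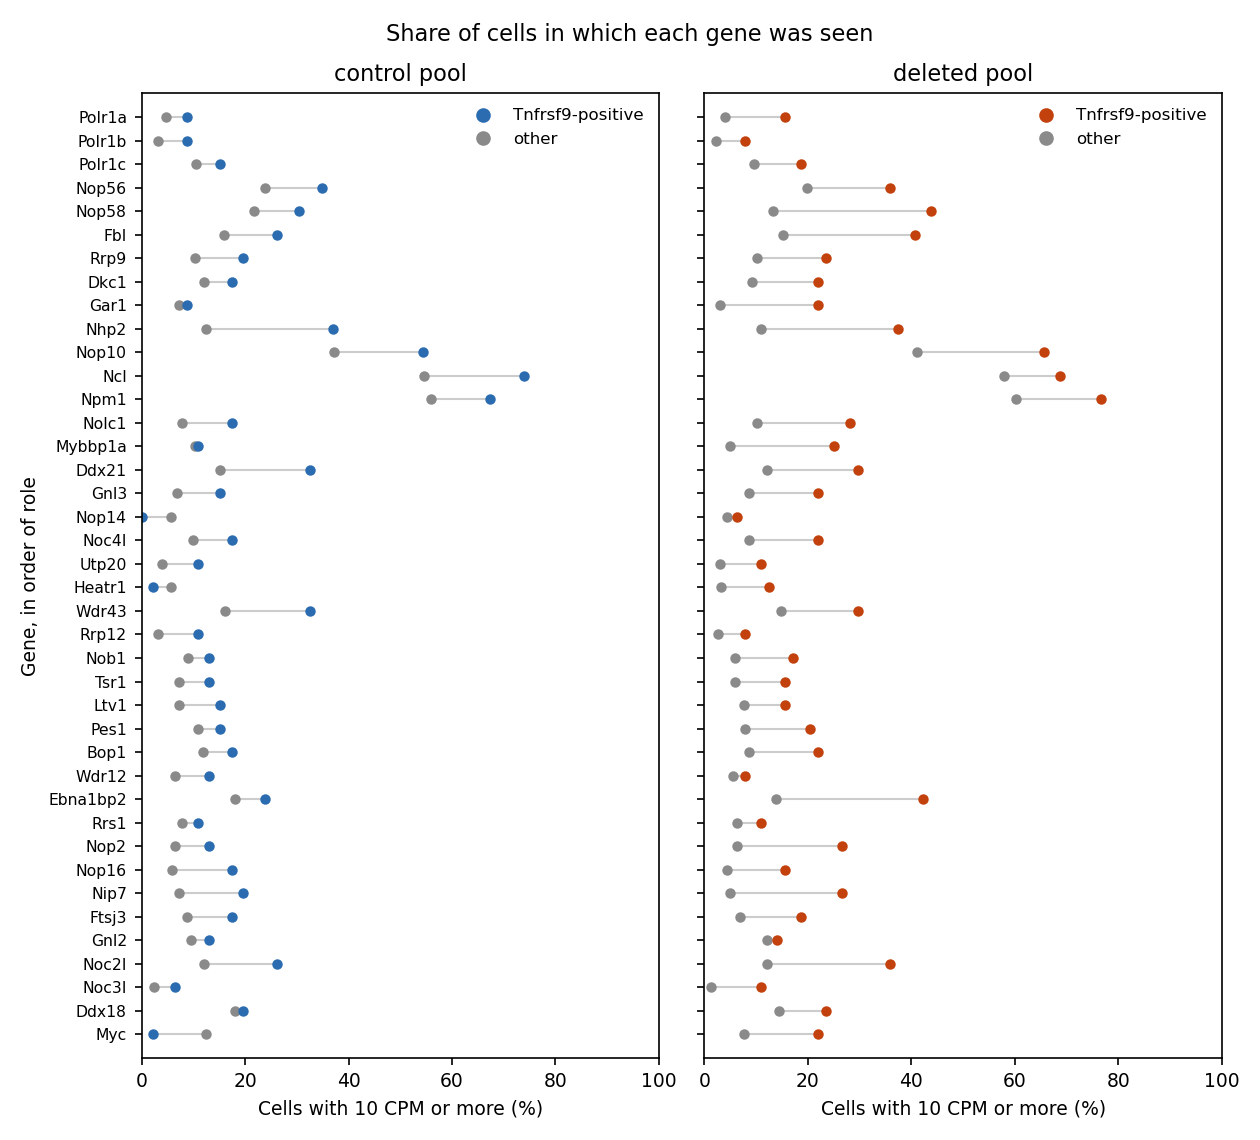
Share of cells with 10 CPM or more of each of the 40 genes (x axis, percent), in Tnfrsf9-positive (coloured) and other cells (grey) of the control pool (left) and the deleted pool (right). The coloured point lies to the right for 37 genes in the control pool and for 40 in the deleted pool; Nhp2 is at 36.96% and 37.5% in positive cells.

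The ratio was larger in the deleted than in the control pool for 30 of the 40 genes, and 9 had opposite signs. The matching shares over all measured genes are not given here, so nothing is read from either count. Positive cells of the deleted pool had a median log2 ratio of 0.58 over positive cells of the control pool (-0.02 over all genes). Of the 40, 8 were at least 2-fold higher (21.5% of all genes were) and none lower (20.4%). Other cells had a median of -0.04 (-0.05 over all genes), with none higher (6.92%) and 5 lower (7.95%). Among positive cells the share at least 2-fold higher was thus close to that of all genes. The median and the share lower differed from those of all genes, which was not tested. Those sums rest on 46 and 64 cells.

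Myc went in opposite directions in the pools. The gene stood at 81.7, 101.5, 101.1 and 101.1 CPM on the control plates and at 63.8, 157.0, 69.6 and 61.6 CPM on the deleted plates. Deleted plate 2 was high and the other 7 plates were between 61.6 and 101.5 CPM, so the pools overlapped. Myc was seen in 1 of 46 Tnfrsf9-positive control cells (13.6 CPM) and in 40 of 322 others (108 CPM), a log2 ratio of -2.90. In the deleted pool it was seen in 14 of 64 positive cells (178 CPM) and in 23 of 304 others (66.9 CPM), a log2 ratio of 1.40. By plate the ratio was below 0 on all 4 control plates, and on the deleted plates it was -0.22, 2.19, 2.07 and -1.21. The 5 cells with the most Myc reads held 36.9% of them in the control pool and 36.1% in the deleted pool.

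A score over the other 39 genes was taken in cells with and without Myc. It was 0.261 in 41 Myc-positive and 0.230 in 327 other control cells, and 0.329 in 37 and 0.228 in 331 deleted-pool cells. Plates of the deleted pool disagreed, with differences of -0.0043, 0.182, 0.143 and 0.0013. Split by both genes, the 45 control cells with Tnfrsf9 and without Myc had a mean of 0.348, and the 40 with Myc and without Tnfrsf9 had 0.260. The 282 control cells with neither had 0.211, and the 1 with both had 0.273. In the deleted pool the 50 cells with Tnfrsf9 alone had 0.403, the 23 with Myc alone 0.223, the 14 with both 0.504 and the 281 with neither 0.197. Of the 110 Tnfrsf9-positive cells, 15 had Myc at 10 CPM or more. The 39 genes were chosen with the Tnfrsf9 split known, so nothing is read from the order of the Tnfrsf9 and Myc means.

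Further ribosome biogenesis genes outside the 40, 129 with a row, gave smaller ratios. The 40 were chosen with this comparison known, so the gap between the lists is given as description only. The median log2 ratio of the further genes was 0.24 in the control pool and 0.55 in the deleted pool. In the control pool 22 of 128 were at least 2-fold higher (17.2%, against 14.2% of all genes) and 10 lower (7.81% against 23.5%). In the deleted pool 33 of 127 were higher (26.0% against 14%) and 4 lower (3.15% against 21%). In both pools 9 of 127 were at least 2-fold higher (7.09% against 3.22%) and none lower (7.59% of all genes). Ruvbl2, an ATPase in small nucleolar ribonucleoprotein assembly, had 126 CPM in positive and 24.2 in other control cells and 120 and 30.0 in the deleted pool. Grwd1, a histone-binding factor of large subunit assembly, had log2 ratios of 1.51 and 2.55, and the RNA acetyltransferase Nat10 had 1.31 and 2.28. Between the pools the median of this list was -0.07.

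Genes that encode the ribosome's own proteins, 79 in all, had smaller ratios still. Their median log2 ratio of positive over other cells was 0.06 in the control pool and 0.23 in the deleted pool, with 0 and 1 at least 2-fold higher (14.2% and 14% of all genes). Between the pools their median was -0.13, and for 20 of the 79 every deleted plate lay below every control plate (2.60% of all genes). Translation factors had medians of 0.41 and 0.25, and genes of RNA polymerase III and 5S ribosomal RNA -0.33 and 0.11. The Myc network list had -0.18 and -0.35, with Mxi1, a Myc antagonist, 2-fold lower in both pools.

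Activation and resting-state genes were read in the same cells. The T cell activation list was mixed in the control pool, with 15 of 26 ratios above 0 and 11 below and a median of 0.32. Its sum there was 3523 CPM in positive and 3849 in other cells. In the deleted pool 23 of 27 ratios were above 0, with a median of 0.67 and sums of 6786 and 4054 CPM. Of 26 activation genes measured in both pools, 3 were at least 2-fold higher in positive cells of both (3.22% of all genes were). Among them were Irf8 and the costimulatory receptor Tnfrsf4 (OX40), and 1 gene, Cd44, was lower (7.59%). Tnfrsf4 had 80.8 against 27.6 CPM in the control pool and 152.8 against 33.9 in the deleted pool. The list of naive or resting T cell genes had medians of -0.39 in the control pool and -0.92 in the deleted pool, with 3 ratios above 0 in each. Of 15 measured in both pools, 5 were at least 2-fold lower in both (7.59% of all genes were): Il7r, Igfbp4, S1pr1, Klf2 and Txnip. Il7r, the receptor for interleukin 7, stood at 11.98 against 95.9 CPM in the control pool and 11.96 against 119 in the deleted pool. The score itself correlated only weakly with the mean log level of these lists over the 736 cells, with Spearman's rho of 0.126 for activation, -0.147 for resting and 0.043 for proliferation genes.

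The same measure was 0.339 for the 129 further ribosome biogenesis genes, 0.342 for translation factors and 0.239 for ribosomal protein genes. In Tnfrsf9-positive cells alone the first of these was 0.508 in the control pool (46 cells) and 0.760 in the deleted pool (64 cells), and in other cells 0.183 and 0.275. These values describe cells that share libraries and differ in depth. Single members followed the rest loosely: each gene's correlation with the score of the other 39, centred by plate, had a median of 0.066 and ran from 0.0069 to 0.215, the last for Ncl.

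Genes outside the set were considered at 20 CPM or more over all cells and at least 1 read in 20% of cells, which left 6321. A read in a cell is a looser mark than the 10 CPM used for shares of cells. The 10 whose level followed the score most closely over the 736 cells, centred by plate, were Hsp90ab1, Eif5a, Hspa8, Prdx1, Mif, Ndufa12, Nme1, Erh, Lsm6 and Ranbp1. Spearman's rho was 0.266 for Hsp90ab1, a cytosolic chaperone, and 0.174 for Ranbp1, a cofactor of nuclear transport, where the median over all genes considered was 0.0084. Hsp90ab1 stood at 2536 CPM in positive and 1476 in other control cells and at 2627 and 1277 in the deleted pool. Eif5a, an elongation factor of translation, had 1116 against 727 CPM and 1709 against 682. Lsm6, a subunit of an RNA-binding ring, was the 1 of the 10 with ratios below 0 in both pools, at -0.14 and -0.04.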

How the data were processed

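The files that the authors deposited give raw counts of reads for every gene in 8 plates of 96 wells, made with featureCounts 2.0.1 on the mm10 build, per the submitters' processing notes. Oligo(dT) priming, 25 cycles of amplification and Tn5 tagmentation are recorded, per the labels' protocols. How reads were aligned, which annotation and strand mode were used, and how multiply matching reads were handled is not given in the sources used here. All 92 cell wells of each plate were kept, and the 32 control wells entered no comparison between groups. No doublet caller was run on cells sorted into wells.

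Counts were summed over the cells of each class and scaled to 1000000 reads (CPM). The log2 ratio is log2 of (CPM + 1) over (CPM + 1), for genes at 5 CPM or more in either class, and called at 2-fold. Folds of low genes are understated. Shares have exact (Clopper-Pearson) and pool levels exact Poisson 95% intervals. With 1 pooled sample per group no test was run. Named were all 40 genes, up to 6 genes per list at 20 CPM or more that were 2-fold apart in both pools or between pools with separated plates, and the 10 genes most like the score. The members and lists were chosen with earlier results of these data known. Genes singled out within a list follow that rule. Medians of the ribosome, translation, RNA polymerase III, Myc network, activation and resting lists stand above. In the control and deleted pools, the proliferation list had medians of 0.25 and 0.69. The Treg list had 0.56 and 0.05, and the CD4 T cell list 0.13 and 0.02. The sums for other marker lists, in positive against other cells, were 0.279 against 30.2 CPM (control) and 7.42 against 9.95 (deleted) for CD8 T cells, 99.3 against 68.7 and 65.2 against 85.1 for NK cells, 11.8 against 12.2 and 11.0 against 14.4 for red cells and platelets, and 148 against 107 and 160 against 108 for plasma cells. The mTORC1 list had medians of 0.41 and 0.38. Only the ratio between pools was tried on simulated data, as plate sums with known fold changes. Single cells, the score and the Tnfrsf9 split were not simulated. Python 3.11.15, numpy 2.4.6, pandas 2.3.3, scipy 1.17.1 and, for TMM factors, edgeR 4.0.16 were used. Alternatives were other thresholds, filters, pseudocounts, scalings, depths and score definitions, and leaving out plates.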

Additional observations from a re-analysis of the deposited data

Results flagged for a closer look

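Plates of 1 pool are splits of 1 sample, and 82 groups of 4 plates were looked at (each gene's CPM and the mean score, in each pool). In 11 of them (13.4%) 1 plate stood far from the other 3, with a gap past Dixon's 95% critical value, which chance gives for about 1 group in 20. On control plates these were Polr1c at 33.4 CPM (plate 3), Gar1 at 25.3 (plate 2), Mybbp1a at 112 (plate 3), Tsr1 at 26.0 (plate 1), Pes1 at 20.6 (plate 3), Rrs1 at 24.9 (plate 4), Nip7 at 49.1 (plate 4) and Myc at 81.7 (plate 1). On deleted plates they were Nop56 at 197.5 CPM (plate 2), Dkc1 at 122.9 (plate 3) and Myc at 157.0 (plate 2). Control plate 3 had 3 of these.

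The control wells named mBM10, which the labels do not explain, entered no comparison. Their median sum of the 40 genes was 4477 CPM in 13 wells, above the highest of the 9 wells without a cell (4261 CPM) and above the median cell.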

How the results depend on the processing

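Of 178 summary values computed under an alternative, 155 stayed within 1 SD of the plates' spread (or 1.5 times for a count) and kept their sign, 18 moved further and 5 changed sign. For positive against other control cells that SD was 0.126 for a score difference of 0.121, and 1.04 for a median log2 ratio of 0.58. The falls there to 0.0151, 0.072 and 0.060, given below, were thus among the 155. For these values the tally is no measure of stability. The score difference between pools was -0.00505 with the median over cells and -7.25e-06 without Npm1, Ncl and Myc. The difference between Tnfrsf9-positive and other deleted-pool cells was 0.148 with the median over cells. With any Tnfrsf9 read counted as positive (510 cells), the score difference was 0.0151 in the control pool and 0.0523 in the deleted pool. The median log2 ratio was 0.072 and 0.30 (0.0088 and 0.047 over all genes). Genes at least 2-fold higher numbered 1 in the control pool (12.2% of all genes), 8 in the deleted pool (18.1%) and 0 in both (3.29%). Without the highest cell of each gene and class those counts were 6 in the control pool (5.09%) and 5 in both (1.11%). The control-pool median log2 ratio was then 0.060 (-0.64 over all genes), and 1 gene was 2-fold lower between pools.

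Leaving out 1 plate in turn gave -0.0077 to 0.0156 for the score difference between pools, 0.0873 to 0.173 for the positive-cell difference in the control pool and 0.201 to 0.242 in the deleted pool. Median log2 ratios were -0.016 to 0.18 between pools, 0.41 to 0.75 in the control pool and 0.98 to 1.26 in the deleted pool. Genes at least 2-fold higher numbered 9 to 17 in the control pool, 20 to 27 in the deleted pool and 6 to 14 in both, and between pools 0 to 1 were higher and 0 to 1 lower. The 39-gene difference by Myc, an alternative chosen after seeing the data, was 0.0218 to 0.0369 in the control pool and 0.0588 to 0.131 in the deleted pool. The score difference between pools was -0.00208 without control plate 1 and negative also without deleted plate 3.

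Among 1837 single-gene ratios under an alternative, a change of sign was counted only where the reported ratio was at least 2-fold. Sign changes of smaller ratios were not counted. By that rule 13 changed sign, all with any Tnfrsf9 read as positive: in the control pool Ncl -0.076, Ddx21 -0.27, Nop14 0.14, Utp20 -0.54, Rrp12 -1.22 and Ddx18 0.15, and in the deleted pool Polr1a -0.12, Polr1b -0.85, Rrp9 -0.21, Gar1 -0.055, Nolc1 -0.33, Noc4l -0.21 and Ebna1bp2 -0.18. For each, the cause was not tested. No paired analysis between pools was possible because each pool is 1 sample. Positive and other cells share plates, and their differences by plate are given without a test. Genes seen in few cells limit the ratios: 35 of 40 were seen in under 20% of cells.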
